A study of Homo sapiens with 6 samples.

Results

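KIRREL3 and the antisense RNA KIRREL3-AS2, which lies inside it on the opposite strand, were followed in HMC3 cells given interleukin-33 (IL-33). They are 2 of the 27469 genes in a table of read counts, and both were among the 12125 genes with enough counts to be tested. KIRREL3-AS2 was chosen by its measured counts, which differed between IL-33 and Control in these same libraries, and KIRREL3 because it encloses it. Their differences between the groups are therefore given as a description, and calls of KIRREL3-AS2 by fits across all genes support nothing about it.

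The groups were 3 libraries of HMC3 cells treated with IL-33 for 24 h and 3 libraries of Control HMC3 cells. HMC3 is an immortalised line labelled as human microglia, and the labels give no dose, no vehicle and no word on whether the libraries came from separate cultures, so that the spread between them may be technical. RNA was read with a 3′ tag protocol, in which a transcript yields a short read near its poly(A) tail whatever its length. Levels of different genes can therefore be set side by side as CPM (a gene's counts scaled to a library of 1000000), apart from priming inside transcripts. The IL-33 libraries held 8294747 to 10217529 counts and the Control libraries 5739947 to 9933395, and 3 counts corresponded to between 0.293 and 0.543 CPM.

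Control 3, the library with the fewest counts, stood apart on the first principal component, which carried 35.4% of the variance: it lay at 55.0, and the other 5 libraries between -18.0 and 0.86. Of 17 microglia markers, 11 had 0 counts in all libraries, among them ITGAM, P2RY12, TMEM119, CX3CR1, SPI1 and TYROBP. Their summed level was 3.89 to 6.84 CPM with IL-33 and 3.57 to 8.32 CPM in Control, while 8 mesenchymal markers, of which COL3A1 and LUM (2 of 8) had 0 counts in all libraries, summed to 950 to 1099 CPM with IL-33 and 852 to 1055 CPM in Control. IL1RL1, which encodes the receptor of IL-33, had 0, 8 and 0 counts in the IL-33 libraries and 0, 0 and 3 in the Control libraries.

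KIRREL3 (also NEPH2) encodes a transmembrane adhesion protein of the immunoglobulin superfamily, a relative of the nephrin-binding proteins of the kidney slit diaphragm. In the nervous system it is known for joining cells through contacts between like molecules and for a part in the formation of synapses in mice. Antisense RNAs are transcripts read from the strand opposite a gene. Some act on the gene they overlap and many have no known function, and no function of KIRREL3-AS2 is taken as known here.

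On GRCh38, KIRREL3 (ENSG00000149571.11) occupies 126423359 to 127003460 of chromosome 11 on the minus strand, a span of 580102 bases. KIRREL3-AS2 (ENSG00000254960.2) occupies 126940746 to 126945090 on the plus strand, a span of 4345 bases, with 494 exonic bases over 2 transcripts in GENCODE release 29, and its transcript KIRREL3-AS2-201 has 3 exons. It lies wholly within intron 1 of the coding transcript KIRREL3-201, which runs from 126562913 to 127000454. Its nearest ends are 55364 bases from exon 1 of KIRREL3 and 377833 bases from exon 2.

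The exons of the pair share 0 bases, so that an exonic read of KIRREL3 is not an exonic read of KIRREL3-AS2. The last exon of KIRREL3-201, where its 3′ tags would be read, lies 515722 bases from KIRREL3-AS2. The strand setting used in counting is not given in the sources used here. Without strand, a read from the unspliced first intron of KIRREL3 that falls on an exon of KIRREL3-AS2 cannot be told apart from a read of the antisense RNA.

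**Figure D1:**
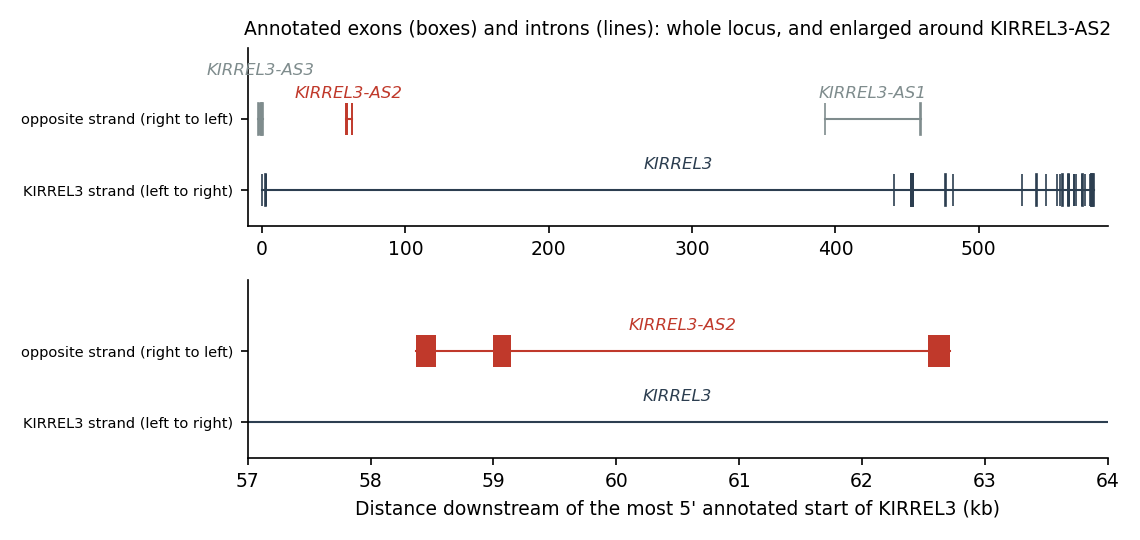
The annotated exons (boxes) and introns (lines) of KIRREL3 and of 3 antisense RNAs, by distance in kb downstream of the most 5′ annotated start of KIRREL3, with KIRREL3 read from left to right and the opposite strand from right to left. The enlarged lower panel shows that the 3 exons of KIRREL3-AS2 face an intron of KIRREL3 and share 0 exonic bases with it.

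The members have separate starts, and the promoter of each is shown as a description. No promoter activity was measured. The RefSeq start used for KIRREL3 is 127003394, and the coding transcript KIRREL3-201 of GENCODE release 29 starts downstream of it, at 127000759. Each sequence holds 250 bases before and 50 bases after the start in RefSeq on GRCh38.p14, with the transcribed bases in capitals.
KIRREL3-AS2, chr11:126940496-126940795, plus strand: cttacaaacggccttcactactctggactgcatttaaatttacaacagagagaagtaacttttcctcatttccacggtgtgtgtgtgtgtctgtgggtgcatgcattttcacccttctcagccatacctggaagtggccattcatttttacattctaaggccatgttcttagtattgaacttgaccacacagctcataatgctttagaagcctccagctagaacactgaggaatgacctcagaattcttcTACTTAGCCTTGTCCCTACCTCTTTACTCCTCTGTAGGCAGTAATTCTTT
KIRREL3, chr11:127003345-127003644, minus strand: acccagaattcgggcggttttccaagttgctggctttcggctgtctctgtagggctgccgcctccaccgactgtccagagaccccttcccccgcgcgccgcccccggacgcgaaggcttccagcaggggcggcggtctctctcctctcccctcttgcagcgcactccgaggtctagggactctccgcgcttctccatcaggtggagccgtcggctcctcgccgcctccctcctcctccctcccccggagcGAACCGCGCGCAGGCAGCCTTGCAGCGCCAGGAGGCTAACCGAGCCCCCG

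The promoter of KIRREL3-AS2 is 42.7% G and C with 2 CpG dinucleotides, and that of KIRREL3 is 69.7% with 30. Over 35116 RefSeq promoters of the same length the medians were 58.7% and 14. A GC box (GGGCGG, both strands) occurs 0 times in the KIRREL3-AS2 window and 3 times in the KIRREL3 window, and 45.0% of all promoters hold it. Neither window holds, on either strand, TATAAA, the AP-1 site TGANTCA, a form of the NF-kB site (GGG, any 2 bases, then TTTCC) or a core of the interferon-stimulated response element (GAAA, any 2 bases, then GAAA). These letters occur in 11.5%, 7.71%, 1.91% and 3.57% of all promoters, in that order. A missing match says only that these letters are not in the window.

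Because the assay reads the 3′ end, the last exon of KIRREL3-AS2-201 is shown as well, from GENCODE release 29 on GRCh38. Its poly(A) signal, the hexamer ATTAAA, is in capitals.
KIRREL3-AS2 last exon, chr11:126944928-126945088, plus strand: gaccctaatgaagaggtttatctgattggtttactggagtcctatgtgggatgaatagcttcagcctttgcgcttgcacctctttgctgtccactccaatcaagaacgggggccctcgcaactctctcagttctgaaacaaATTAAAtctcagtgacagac

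The hexamer ends 14 bases before the annotated end. AATAAA or ATTAAA occurs in the last 40 bases of 2 of 2 annotated transcripts of KIRREL3-AS2 and of 5 of 9 of KIRREL3, against 30.2% of all 206635 annotated transcripts that are long enough. The match describes the annotation and does not show where the reads of these libraries ended.

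KIRREL3-AS2 was counted more often in every IL-33 library than in any Control library, while KIRREL3 lay in the same range in both groups. KIRREL3-AS2 had 204, 148 and 293 counts in IL-33 libraries 1 to 3, against 89, 71 and 43 in Control libraries 1 to 3. As CPM on scaled library sizes these are 21.7, 14.5 and 34.5 with IL-33, against 8.84, 8.54 and 7.78 in Control. IL-33 3 was the highest library and IL-33 2 the lowest of its group, and the groups did not overlap. KIRREL3 had 201, 245 and 191 counts with IL-33, against 230, 205 and 120 in Control. These are 21.4, 23.9 and 22.5 CPM with IL-33, against 22.8, 24.6 and 21.7 CPM in Control, 6 values within a narrow band and with groups that overlapped.

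Groups without overlap were found in 551 of the 12125 tested genes with IL-33 on top (4.54%) and in 426 with IL-33 underneath (3.51%). Nothing is read from this share for KIRREL3-AS2, since the same contrast chose it. With bulk RNA, more cells that make a transcript and more of it per cell cannot be told apart.

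**Figure D2:**
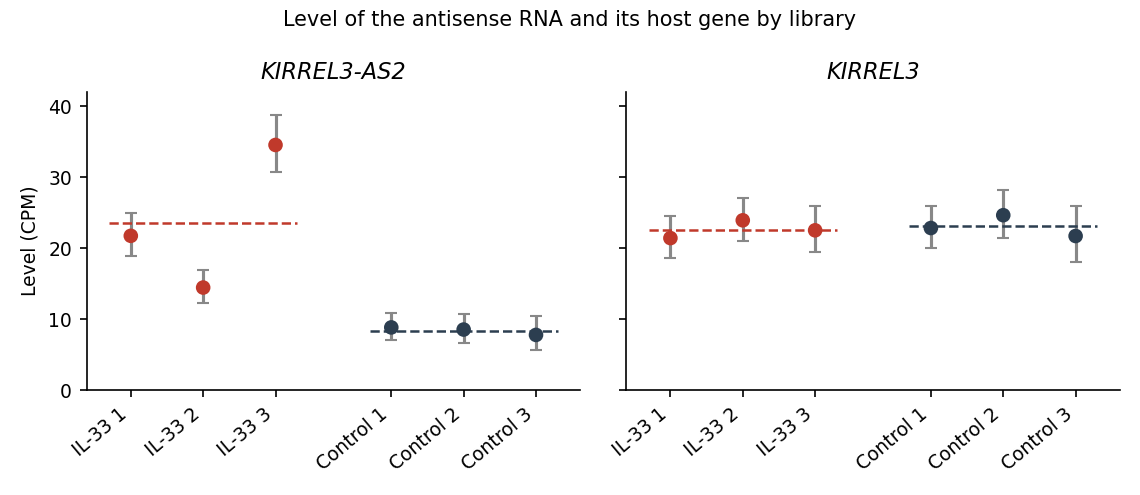
Levels of KIRREL3-AS2 and KIRREL3 in CPM for each IL-33 library (red) and each Control library (dark), with exact Poisson 95% intervals for counting error as bars and group means as dashed lines. KIRREL3-AS2 runs from 14.5 to 34.5 CPM with IL-33, above its 7.78 to 8.84 CPM in Control, while all values of KIRREL3 lie between 21.4 and 24.6 CPM.

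The mean level of KIRREL3-AS2 was 23.6 ± 10.2 CPM with IL-33 and 8.38 ± 0.544 CPM in Control (SD, n = 3 each), a log2 fold change of 1.48 ± 0.29 (SE) in the edgeR fit over all genes. KIRREL3 averaged 22.6 ± 1.26 CPM with IL-33 and 23.1 ± 1.48 CPM in Control, a log2 fold change of -0.03 ± 0.19. Of all tested genes, 38 (0.313%), KIRREL3-AS2 included, had a log2 fold change at or above that of KIRREL3-AS2. The same contrast chose KIRREL3-AS2, so this share supports nothing. The members were of middling abundance, with 59.1% of tested genes above KIRREL3-AS2 and 50.4% above KIRREL3 in mean CPM.

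The spread of KIRREL3-AS2 within the IL-33 group was wider than counting error if each read came from a separate molecule. The exact 95% Poisson intervals ran from 12.2 to 17.0 CPM in IL-33 2, from 18.9 to 24.9 CPM in IL-33 1 and from 30.7 to 38.7 CPM in IL-33 3, and none of the 3 met another. In Control the intervals all overlapped, and the highest bound was 10.9 CPM. Such intervals cover counting error alone and treat each read as a separate molecule. Where no molecular identifier is used, PCR copies cannot be told from separate molecules, so the intervals may be too narrow.

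The coefficient of variation of KIRREL3-AS2 was 43.1% among the IL-33 libraries and 6.49% among the Control libraries. Over the 8331 genes with a mean of 10 CPM or more over both groups, the median was 9.65% with IL-33 and 13.5% in Control. Of these genes, 41 varied more than KIRREL3-AS2 among the IL-33 libraries. KIRREL3-AS2 averaged 8.38 CPM in Control and passed that floor through its IL-33 libraries. KIRREL3 varied by 5.55% with IL-33 and 6.41% in Control, below both medians. These coefficients include counting error, and the 8331 genes were not matched in level. In Control, KIRREL3-AS2 rested on 43 to 89 counts per library. The low values of KIRREL3-AS2 in Control and of KIRREL3 are therefore not read as stable levels. IL-33 3 carried much of the difference in KIRREL3-AS2: without it the log2 fold change was 1.10, and without IL-33 2 it was 1.74.

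The relation between the members was read within each library as the share of the pair's counts that fell on KIRREL3-AS2, which does not depend on library depth or scaling. The share was 50.4% in IL-33 1 (exact Clopper-Pearson 95% interval 45.4 to 55.3), 37.7% in IL-33 2 (32.9 to 42.7) and 60.5% in IL-33 3 (56.0 to 64.9). In Control 1 it was 27.9% (23.0 to 33.2), in Control 2 25.7% (20.7 to 31.3) and in Control 3 26.4% (19.8 to 33.8). The Control shares lay close together at depths that differed widely, and every IL-33 share was above them, although the interval of IL-33 2 met those of Controls 1 and 3. Each Control interval was far wider than the distance between the Control shares, so their closeness is not read as a stable share.

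The mean share was 49.5% ± 11.5 with IL-33 and 26.7% ± 1.12 in Control (SD, n = 3 each), a difference of 22.9 percentage points. Without IL-33 3 the difference was 17.3 points and without IL-33 2 it was 28.8 points. KIRREL3-AS2 had 1.05 ± 0.466 counts per count of KIRREL3 with IL-33, and 0.364 ± 0.0209 in Control. In IL-33 3 the antisense RNA was counted more often than its host gene, and in IL-33 2 and all Control libraries less often. In IL-33 1 the members were counted about equally often (204 against 201). The pair's summed level was 46.2 ± 9.70 CPM with IL-33 and 31.5 ± 1.85 CPM in Control, a difference of 14.7 CPM. KIRREL3-AS2 accounted for 15.2 CPM of it and KIRREL3 for -0.446 CPM. No correlation between the members is given, since the values of KIRREL3-AS2 fell into separate groups of 3 libraries.

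**Figure D3:**
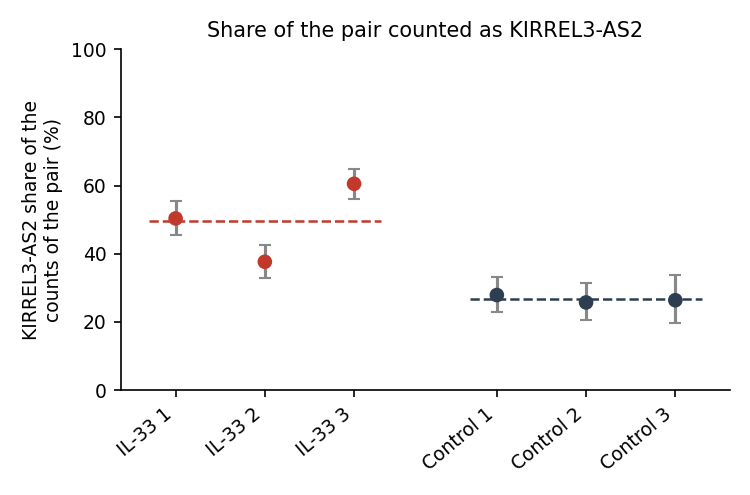
Share of the counts of KIRREL3-AS2 and KIRREL3 together that fell on KIRREL3-AS2, in percent, for each IL-33 library (red) and each Control library (dark), with exact 95% binomial intervals as bars and group means as dashed lines. The Control shares lie between 25.7% and 27.9% and the IL-33 shares between 37.7% and 60.5%.

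The table held 1065 antisense RNAs named after a gene that was also in the table. Pairs were formed by name, and their overlap was not checked. Among the 393 pairs with 1000 counts or more, the median antisense share over the 6 libraries was 0.637%, and 64 pairs had a share over 10%. KIRREL3-AS2, at 41.6%, ranked 22 of 393. The 3 highest shares were those of FGD5-AS1 (100%), MMP24-AS1 (99.9%) and LRRC75A-AS1 (99.4%), whose host genes were at or near 0. With counts summed by group, the share of KIRREL3-AS2 was 50.3% with IL-33 and 26.8% in Control. The difference of 23.5 points was the highest among the 393 pairs, with ZSCAN16-AS1 next (73.8% with IL-33, 62.5% in Control) and a median of 0 points. KIRREL3-AS2 was chosen for its difference, so this rank supports nothing.

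In 191 pairs both genes could be tested. The median log2 fold change was 0.06 for their antisense RNAs and -0.01 for their sense genes. In 16 of the antisense RNAs (8.38%) the groups were apart with IL-33 on top, against 4.54% of all tested genes, and KIRREL3-AS2, chosen for this contrast, is among the 16. In 5 of the 191 antisense RNAs the groups were apart with IL-33 underneath, against 3.51% of all tested genes. Of the 191 sense genes, 12 were apart with IL-33 on top, against 4.54% of all tested genes. Sense genes apart with IL-33 underneath were not summarised, so nothing is read from that count. The log2 fold change of KIRREL3-AS2 exceeded that of KIRREL3 by 1.51, rank 5 of 191, which supports nothing since the contrast chose it. The 4 pairs with larger differences had antisense RNAs with 52 to 93 counts over all libraries, against 848 for KIRREL3-AS2.

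**Figure D4:**
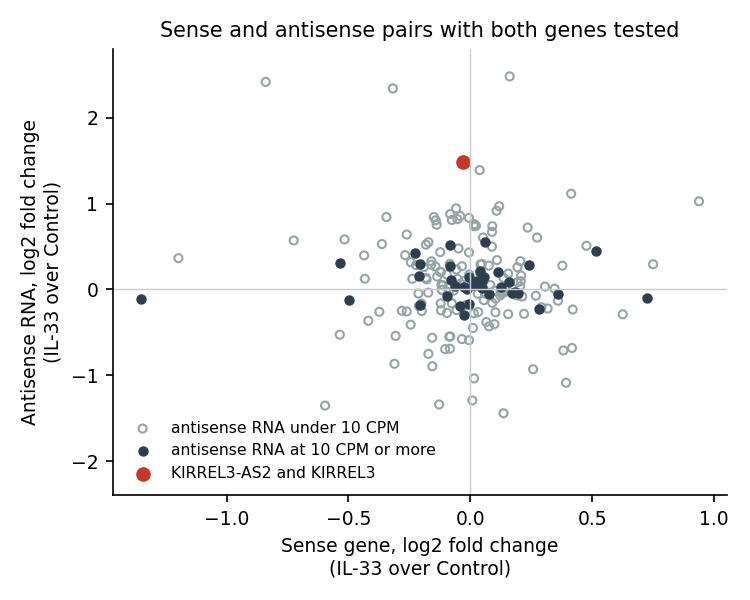
Log2 fold changes (IL-33 over Control) of the antisense RNA against those of the sense gene for 191 pairs in which both were tested, with antisense RNAs at 10 CPM or more filled and those below open. KIRREL3-AS2 and KIRREL3 (red) lie at 1.48 and -0.03, and the difference between antisense RNA and sense gene was larger in 4 of the other pairs.

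The other antisense RNA of the locus in the table, KIRREL3-AS3, lies on the opposite strand across the most 5′ annotated start of KIRREL3. It shares 205 exonic bases with KIRREL3. No library held a count of it (0 in each of 6), a result compatible with at most 0.354 CPM in IL-33 3 and 0.543 CPM in Control 3, the libraries with the fewest counts of each group. The microRNA gene MIR3167, within the KIRREL3 span, was also at 0. KIRREL3-AS1 had no row of that name in the table and could not be read. KIRREL3-AS2 was thus the sole row with counts among the antisense RNAs of KIRREL3 that could be read.

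Among the paralogs, KIRREL3 was the most counted. KIRREL (KIRREL1 or NEPH1), a nephrin-binding protein of the slit diaphragm, had 13.5, 13.8 and 13.9 CPM with IL-33, within the range of its 10.2, 11.4 and 17.2 CPM in Control. Its log2 fold change was 0.10 ± 0.26 (adjusted p = 0.999, edgeR quasi-likelihood, Benjamini-Hochberg). It was -0.047 without Control 1, 0.02 without Control 2 and 0.34 without Control 3. KIRREL2 (NEPH3) had 5, 4 and 5 counts with IL-33 and 10, 5 and 0 in Control, too few to be tested. NPHS1, which encodes nephrin, had 0 counts in all libraries. KIRREL-IT1, a noncoding RNA within an intron of KIRREL, averaged 5.28 ± 1.17 CPM with IL-33 and 4.58 ± 1.03 CPM in Control, with a log2 fold change of 0.19 ± 0.40.

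The genes tied to KIRREL proteins did not pass the test. Over all 12125 genes, the edgeR quasi-likelihood test called 0 (0%) at a Benjamini-Hochberg adjusted p of 0.05, with 295 (2.43%) at an unadjusted p under 0.05. Limma-voom called 0. DESeq2 called 1 when run on these 12125 genes, and 0 when run on all 17264 genes with a count. The call was KIRREL3-AS2, which was chosen on this contrast, so it is no independent evidence. Of 29 listed family members and partners, proteins of the slit diaphragm among them, 22 were tested and 0 were called. Of the 22, 9 had a log2 fold change above 0 and 13 below, with 0 at an unadjusted p under 0.05. Their median was -0.03, against -0.01 over all tested genes. DESeq2 and limma-voom also called 0 of these genes, and 0 in both lists that follow.

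The 4 members with the smallest p included SYNPO, an actin-associated protein of podocytes and dendritic spines, with 7.56 ± 1.97 CPM with IL-33 and 4.73 ± 1.81 CPM in Control and a log2 fold change of 0.69 ± 0.39. For PODXL, a sialomucin of podocytes, the log2 fold change was 0.80 ± 0.62 at a mean of 1.94 CPM. The scaffold MAGI2 had 0.73 ± 0.58 at 2.22 CPM, and the kinase FYN, which phosphorylates nephrin, 0.21 ± 0.17 at 31.7 CPM. The log2 fold change of SYNPO was 0.39 without Control 2 and that of PODXL 0.53 without IL-33 2, while that of FYN was 0.36 without Control 2 and 0.13 without Control 3. In PODXL and MAGI2 (2 of 22) the groups did not overlap, with IL-33 on top, against 4.54% of all genes.

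The podocyte markers NPHS1 and WT1 had 0 counts in all libraries, and the summed level of SYNPO and PODXL was 7.54 to 13.0 CPM with IL-33 and 4.09 to 7.45 CPM in Control. Of 9 neuronal markers, 3 had 0 counts (STMN2, ELAVL4 and NEFL), and the list summed to 28.999 to 38.0 CPM with IL-33 and 24.4 to 33.3 CPM in Control. The sums of SYNPO and PODXL did not overlap between the groups, but 7.54 and 7.45 CPM lay close together. SYNPO alone overlapped. No share over all genes was computed for such sums, so nothing is read from them. Whether these genes bear on the level of KIRREL3-AS2 was not tested.

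Other adhesion proteins of the immunoglobulin superfamily did not pass either. Of 38 listed, 10 had 0 counts in all libraries and 18 were tested. The test called 0 of the 18, as it called 0 of all 12125 tested genes. Of the 18, 7 had a log2 fold change above 0 and 11 below, with a median of -0.05. MCAM, an adhesion molecule of endothelial and mesenchymal cells, was the member with the smallest p. It was the sole member at an unadjusted p under 0.05 (1 of 18), against 2.43% of all tested genes. It averaged 89.7 ± 2.16 CPM with IL-33 and 109 ± 17.7 CPM in Control, a log2 fold change of -0.28 ± 0.12 (adjusted p = 0.999, edgeR quasi-likelihood, Benjamini-Hochberg). The poliovirus receptor PVR had -0.20 ± 0.12 at 198 CPM, the axon guidance receptor ROBO3 0.29 ± 0.19 at 25.5 CPM and NECTIN4, a nectin of cell junctions, 0.99 ± 0.67 at 1.89 CPM. Without Control 3, the library that stood apart, the log2 fold change of MCAM was -0.14 and that of PVR -0.046. That of ROBO3 was 0.12 without IL-33 3, and that of NECTIN4 1.83 without Control 1.

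The neighbours of KIRREL3 at 11q24 showed no shift that passed the test. Of 32 listed genes, 31 were in the table and 20 were tested. The test called 0 of the 20, as it called 0 of all 12125 tested genes. At an unadjusted p under 0.05 there were 0, against 2.43% of all tested genes. Of the 20, 9 were above 0 and 11 below, with a median log2 fold change of -0.02. The 4 with the smallest p were PRDM10, a zinc finger protein, with -0.65 ± 0.33 at 7.43 CPM, the transcription factor ETS1 with -0.23 ± 0.13 at 111 CPM, ARHGAP32, a GTPase-activating protein, with 0.56 ± 0.42 at 5.99 CPM, and TIRAP, an adaptor of Toll-like receptors that recruits MyD88, with 0.64 ± 0.50 at 3.58 CPM. PRDM10 had 5.97, 4.98 and 6.48 CPM with IL-33, against 10.03, 10.6 and 6.51 CPM in Control. Its groups did not overlap, the sole such neighbour (1 of 20), with IL-33 underneath, against 3.51% of all tested genes. ETS1 averaged 103 ± 14.8 CPM with IL-33 and 120 ± 14.8 CPM in Control, with groups that overlapped. Its log2 fold change was -0.14 without IL-33 1 and -0.34 without IL-33 3, and that of TIRAP was 0.16 without IL-33 1. That of ARHGAP32 was 0.25 without Control 3, 0.37 without IL-33 2 and 0.85 without IL-33 1. The fold of KIRREL3-AS2 was larger than that of any tested neighbour, whose log2 fold changes ran from -0.65 to 0.64. KIRREL3-AS2 was chosen for its difference and the neighbours were not, so this comparison supports nothing.

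The profile of KIRREL3-AS2 over the 6 libraries was set against those of the other 8330 genes with a mean of 10 CPM or more. Likeness was the root mean square difference in log2 CPM after each gene was centred on its own mean. The nearest was NEAT1, the long noncoding scaffold of paraspeckles, at 0.20. It had 290, 249 and 466 CPM in IL-33 libraries 1 to 3, against 157, 168 and 131 CPM in Control libraries 1 to 3. As in KIRREL3-AS2, IL-33 3 was the highest library, IL-33 2 the lowest of its group and Control 3 the lowest of all.

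The next were AHSA2 at 0.41, COL7A1 (type VII collagen) and PCGF3 (a Polycomb group ring finger protein), both at 0.44, and CBR4 (a mitochondrial carbonyl reductase) at 0.45. Each was highest in IL-33 3 and lowest in Control 3. In AHSA2 the groups overlapped, with 14.5, 14.0 and 24.6 CPM with IL-33 and 14.0, 9.26 and 6.51 CPM in Control. A gene with no variation at all would stand at 0.78, and KIRREL3 stood at 0.80, rank 4289 of 8330. Genes were ranked by likeness over both groups, so a gene that differed between them in the same direction was favoured. The floor of 10 CPM, on the mean over both groups, favoured such genes too. KIRREL3-AS2, AHSA2, COL7A1 and CBR4 averaged 8.38, 9.92, 7.78 and 8.25 CPM in Control and passed it through their IL-33 libraries. Nothing is read from the ranking.

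**Figure D5:**
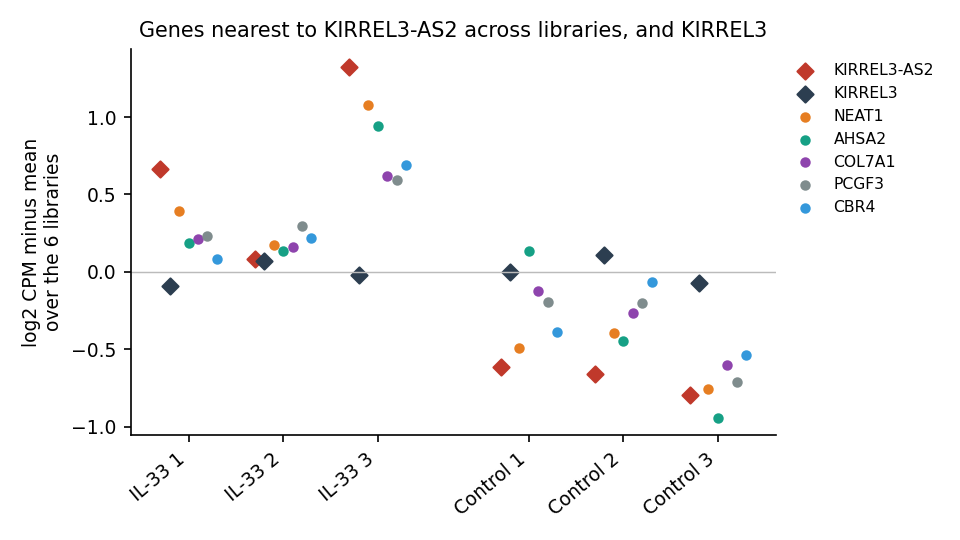
Log2 CPM of KIRREL3-AS2, KIRREL3 (diamonds) and the 5 genes nearest to KIRREL3-AS2 (circles), each minus its mean over the 6 libraries, in the IL-33 libraries (left) and the Control libraries (right). KIRREL3-AS2 is at 1.33 in IL-33 3 and NEAT1 at 1.08, while KIRREL3 stays between -0.09 and 0.11 in all libraries.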

How the data were processed

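RNA was extracted with TRIZOL and made into libraries with the Lexogen QuantSeq 3′ FWD kit, per the labels' protocols. The authors deposited whole-number read counts per gene symbol for all 6 libraries. The submitters' processing notes name hg38 as the build, and edgeR, HTSeq (0.6.1) and STAR (2.7.5a) as tools, without their roles. Neither the annotation nor the strand setting is given in the sources used here. Of 27470 table rows, 1 had no values and was left out.

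The test was edgeR's (version 4.0.16, R 4.3.3): filterByExpr with a count minimum of 10 and a total minimum of 15, TMM scaling, and a robust quasi-likelihood fit with group as the sole term, adjusted by Benjamini-Hochberg at 0.05. The filter kept 12125 genes. CPM used TMM-scaled library sizes, and log2 CPM added a prior count of 2. Alternatives were DESeq2 (1.42.0), limma-voom (limma 3.58.1), other scalings and filters, the replicate number as a block and each library left out. The fit was tested on simulated data. Between libraries of a group, chi-square per degree of freedom was 5.56 to 15.8, so none were merged.

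Positions and transcripts came from GENCODE release 29 on GRCh38 and promoters from RefSeq on GRCh38.p14, matched by symbol (2 of 2). By rule the named genes were the members, KIRREL paralogs, NPHS1, other KIRREL3 antisense rows, the 4 smallest p per list, the 5 nearest profiles and the 3 highest antisense shares. Outside this rule stand cell type markers, IL1RL1, KIRREL-IT1 and MIR3167, and ZSCAN16-AS1 and MALAT1, named after their values were seen. Members and lists were chosen with earlier results of these data known.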

Additional observations from a re-analysis of the deposited data

How the results depend on the processing

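The count of called genes was 0 with edgeR scaled by size factors of DESeq2 or by total counts, with a minimum of 10 CPM, with limma-voom and with the replicate block. With no filter on low counts edgeR called 3 genes (KIRREL3-AS2, MALAT1 and NEAT1, all higher), of which KIRREL3-AS2 was chosen on this contrast. DESeq2 on the filtered genes called 1 (KIRREL3-AS2), and 0 on all genes with a count, a setting added after the data were examined. With a library left out the count ran from 0 to 6, the 6 arising without Control 3, KIRREL3-AS2 among them. The causes were not tested. The log2 fold change of KIRREL3-AS2 ran from 1.35 to 1.49 over the other settings and from 1.10 to 1.74 with 1 library less. For KIRREL3 these ranges were -0.03 to -0.02 and -0.07 to 0.02, so its sign was not stable. KIRREL ran from -0.047 (without Control 1) to 0.34 with 1 library less. The difference in antisense share was 23.5 points on summed counts, and 17.3 to 28.8 points with 1 library less. No listed gene was called under any setting run. With the replicate block KIRREL3-AS2 had 1.39 and KIRREL3 -0.03, with 0 genes called. The labels do not say that the numbers pair libraries, and same-numbered deviations correlated at -0.09, 0.03 and -0.14. A library's share rested on 163 to 484 counts, but the IL-33 libraries spread more widely (SD 11.5 points) than counting error of separate molecules.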
